A study of Xenopus laevis with 6 samples.

Results

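The genes for the proteins of the cytosolic ribosome were followed in the dorsal portion of Xenopus laevis gastrulae, in embryos depleted of apcdd1 and in embryos given a control morpholino. Members were all probe sets of the Affymetrix array whose platform annotation gave 1 gene symbol beginning with rpl or rps and a number, or rplp0, rplp1, rplp2 or rpsa, with the rps6k kinases left out. This rule found 149 of the 32634 probe sets, for 90 of the 11302 gene symbols that single-symbol probe sets carry. Another 18 matching probe sets carried several symbols and were kept apart. After dim probe sets were left out, 125 of the 149 remained in the test, 76 for the large subunit and 49 for the small subunit, with 85 symbols. Xenopus laevis is an allotetraploid, and most genes exist as an L and an S copy, called homeologs; with these merged the 125 probe sets stood for 70 genes.

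Morpholino antisense oligonucleotides (MO) block translation or splicing of a target RNA, and the membrane protein Apcdd1 is known to inhibit Wnt signalling. The apcdd1 MO group had 3 arrays of embryos whose genotype label is anti apcdd1 MO, and the control MO group had 3 arrays of embryos labelled control MO. In both groups 10 ng of morpholino per injection went into the 2 dorsal blastomeres at the 4-cell stage, embryos grew at 16 degrees C to stage 10.5, early gastrula, and the dorsal portion was cut off. Each array was made from 6 µg of total RNA, and the study prepared batches of 10 embryos. Only the depleted embryos also carried a ventral dye mark, Nile Blue, since the dorsal lip was late in some of them; the labels name no strain and no other allele. The treatment text of the control samples also names the apcdd1 morpholino, so the groups here follow the title and genotype labels. No label says that arrays of a group came from separate clutches, and the spread behind each p-value may be technical.

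A ribosome joins a small subunit, which reads the mRNA, with a large subunit, which forms the peptide bond. Each subunit holds ribosomal RNA and a fixed set of proteins, most of them needed in equal numbers and made from many unlinked genes. The mRNAs of these genes begin with a pyrimidine tract, and their translation is adjusted together by mTOR signalling. A frog egg carries a large maternal store of ribosomes, so an embryo at gastrulation does not depend on new ribosomes alone.

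The median signal over all probe sets was between 44.4 and 45.7 in each array. Probe sets for bacterial control RNAs added to the samples (bioB, bioC, bioD and cre) averaged a log2 signal of 10.81, 10.64 and 10.83 in apcdd1 MO arrays, against 10.52, 10.34 and 10.63 in control MO arrays, without overlap. The single tested apcdd1.L probe set, the targeted gene, fell by 0.33 on the log2 scale (limma adjusted p = 0.027), although a morpholino need not change the level of its target RNA. Of 16 dorsal marker genes tested all 16 had a negative log2 change and 4 fell (limma, adjusted p under 0.05). Of 11 ventral markers 3 rose, all ventx copies, none fell and 6 had a negative change. Among all tested probe sets 3.61% fell, 3.00% rose and 49.9% had a negative change. The mean log2 signal over the dorsal markers was 9.85 to 9.92 in apcdd1 MO arrays and 10.07 to 10.23 in control MO arrays. Over the ventral markers it was 7.65 to 7.70 in apcdd1 MO arrays and 7.56 to 7.75 in control MO arrays. The ratio of the 3' to the 5' gapdh control probe sets, a measure of RNA integrity, was 1.87 ± 0.07 in apcdd1 MO arrays and 1.77 ± 0.03 in control MO arrays (SD, n = 3 each), without overlap. The part of these differences in the ribosomal results was not tested. In such bulk samples, fewer cells of a type and less RNA per cell cannot be told apart.

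Ribosomal protein probe sets were called about as often as all tested probe sets. Among the 125 tested probe sets, 2 rose and 6 fell after apcdd1 depletion (limma, adjusted p under 0.05 over all 19484 tested probe sets), and 117 did not pass. The 8 called probe sets are 6.40% of the members, against 6.62% called among all tested probe sets. The calls were lower in 4.80% of members against 3.61% of all probe sets, and higher in 1.60% against 3.00%. The median log2 change was -0.05, the middle 50% of changes lay between -0.14 and 0.03, and the range was -0.50 to 1.23. A change smaller than 0.2 in size was seen in 102 of the 125 (81.6%), against 77.4% of all tested probe sets, and the median standard error of a member was 0.084. These shares are not matched for signal, and members were brighter. Shares within the middle and bright signal ranges are given further on. Negative changes were more frequent than positive ones, 87 against 38, or 69.6% of members, against 49.9% of all tested probe sets.

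The groups did not overlap for 21 members (16.8%), against 24.7% of all tested probe sets. All apcdd1 MO arrays lay below all control MO arrays for 16 members (12.8%), which is also the share among all tested probe sets (12.8%). All apcdd1 MO arrays lay above all control MO arrays for 5 members (4.00%), against 11.9% of all tested probe sets.

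The members moved together between single arrays by more than the groups differed. Each member's log2 signal was set against its mean over the 6 arrays, and the median over the 125 was taken. It was -0.07, 0.04 and -0.05 in apcdd1 MO arrays 1 to 3, against 0.12, -0.08 and 0.02 in control MO arrays 1 to 3. The groups overlap, since apcdd1 MO array 2 lay above 2 of the 3 control MO arrays and control MO array 2 lay lowest of all. The same median over all tested probe sets stayed between -0.01 and 0.01 in every array. Control MO array 1 held the highest value of 72 members (57.6%), against 18.4% of all tested probe sets, and control MO array 2 held the lowest value of 47. The large and small subunit medians had the same order of arrays at both ends, with control MO array 1 highest and control MO array 2 lowest. Without control MO array 1 the median change of the members was -0.01, and without control MO array 2 it was -0.10. With limma array weights, which give less weight to arrays far from their group, the median was 0.03, so its sign changed with the weighting.

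**Figure D1:**
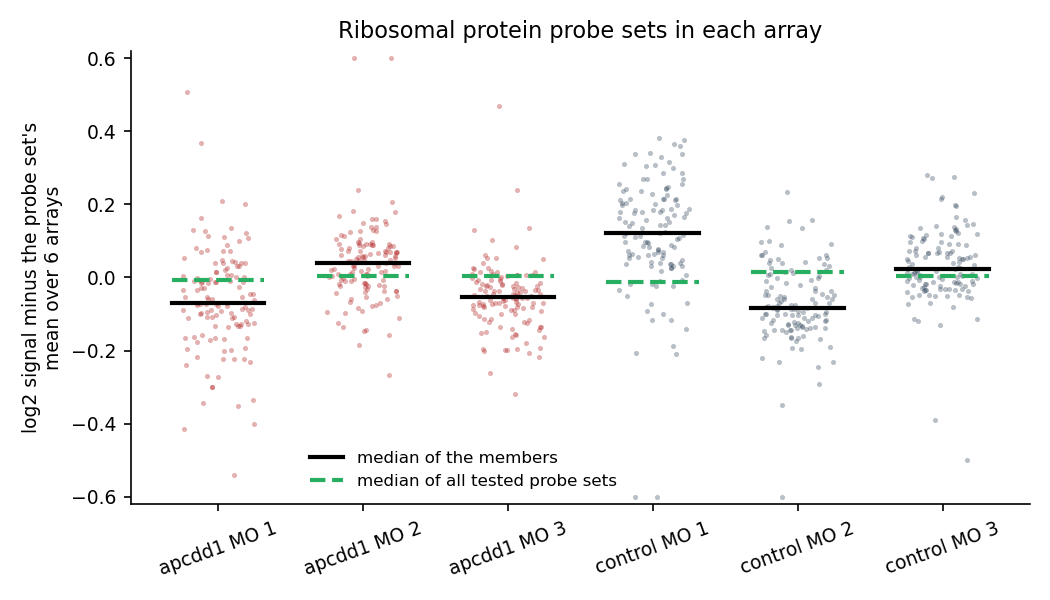
Log2 signal of each of the 125 tested ribosomal protein probe sets minus its mean over the 6 arrays, by array, with apcdd1 MO arrays on the left; black lines are medians of the members and dashed lines medians of all tested probe sets, and points beyond 0.6 are drawn at the edge. The member medians of apcdd1 MO arrays (-0.07, 0.04 and -0.05) and of control MO arrays (0.12, -0.08 and 0.02) overlap.

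To describe the members relative to each other, each array was centred on its own member median. The median within-group standard deviation of a member was then 0.0771 on the log2 scale, against 0.109 as measured, and it was smaller for 97 of the 125. Relative to the other ribosomal protein genes, 2 members were higher and 3 lower (limma, adjusted over the whole table), where 6.77% of all tested probe sets were called on this scale, and these 5 were all among the 8 called as measured. They were the dim probe sets of rps27.S and rpl10a.S, the rpl13a.L probe set and both called probe sets of rpl35a.S. The rpl10a.S probe set was tested only through its apcdd1 MO arrays, where it is high, so nothing is read from its call. Both fits used the same arrays and the same filter, so their shared calls are not separate evidence. This centring was chosen after the data were seen.

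The 6 probe sets that fell stood for 5 genes, 4 of them of the large subunit. The gene rpl13a.L, for a large subunit protein that in mammals also has a role in silencing inflammatory mRNAs, had signals of 543, 653 and 621 in apcdd1 MO arrays, against 901, 789 and 868 in control MO arrays. The groups do not overlap, and the log2 change was -0.50 ± 0.08 (SE; limma adjusted p = 0.0066), or 1.41-fold lower. It passed the threshold in all 16 alternatives run. Relative to the member median of each array the change was -0.45 ± 0.11 (adjusted p = 0.0024 by limma). The SE on that scale was larger than as measured and the adjusted p smaller, so sizes of p-values are not compared between these fits. This centring is counted among the 16 alternatives. Calls kept or lost after it are given as description and not as a check of a call.

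The gene rpl35a.S encodes a large subunit protein that in humans is one of those mutated in Diamond-Blackfan anaemia. Its probe set with the largest change had signals of 221, 248 and 246 in apcdd1 MO arrays, against 368, 315 and 324 in control MO arrays, a log2 change of -0.49 ± 0.08 (limma adjusted p = 0.0075). A further one had 246, 272 and 261 in apcdd1 MO arrays, against 376, 337 and 351 in control MO arrays, a change of -0.45 ± 0.07 (limma adjusted p = 0.0058). Every apcdd1 MO array was below every control MO array in both, and both passed in all 16 alternatives. The other tested probe sets of rpl35a.S changed by -0.28 (adjusted p = 0.11) and -0.33 (adjusted p = 0.15), did not pass in limma, and also had all apcdd1 MO arrays below all control MO arrays. All 4 tested probe sets of the gene were thus lower in every apcdd1 MO array, although probe sets of one gene share its RNA and are not replicates.

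The gene rpl7a.S, for a large subunit protein, had 403, 463 and 422 in apcdd1 MO arrays, against 550, 517 and 586 in control MO arrays. The log2 change was -0.36 ± 0.08 (limma adjusted p = 0.023), and the groups do not overlap. It passed in 13 of 16 alternatives and was lost without apcdd1 MO array 1 (adjusted p = 0.0785), without apcdd1 MO array 3 (adjusted p = 0.0977) and after centring on the ribosomal protein median (adjusted p = 0.104).

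The gene rpl10.S encodes a protein that in yeast joins the large subunit late, in the cytoplasm. It had 1138, 1161 and 1086 in apcdd1 MO arrays, against 1441, 1276 and 1393 in control MO arrays. These do not overlap, and the change was -0.28 ± 0.06 (limma adjusted p = 0.028), which passed in 8 of 16 alternatives with adjusted p up to 0.239. The call was lost without each array in turn other than control MO array 2, with adjusted p of 0.071, 0.0648 and 0.127 without apcdd1 MO arrays 1 to 3, and 0.0688 and 0.0544 without control MO arrays 1 and 3.

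The only small subunit gene that fell was rps2.L, whose protein lies near the mRNA entry of the small subunit. Its brighter probe set had 2038, 2016 and 1924 in apcdd1 MO arrays, against 2434, 2259 and 2295 in control MO arrays. The change was -0.22 ± 0.05 (limma adjusted p = 0.032) without overlap, and it passed in 8 of 16 alternatives with adjusted p up to 0.414. It was lost without each array in turn other than control MO array 3, with adjusted p of 0.0592, 0.0815 and 0.14 without apcdd1 MO arrays 1 to 3, and 0.0748 and 0.0767 without control MO arrays 1 and 2. The other tested rps2.L probe set had 852, 986 and 879 in apcdd1 MO arrays, against 1113, 1017 and 1058 in control MO arrays, a change of -0.23 ± 0.07 that did not pass (limma adjusted p = 0.091).

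**Figure D2:**
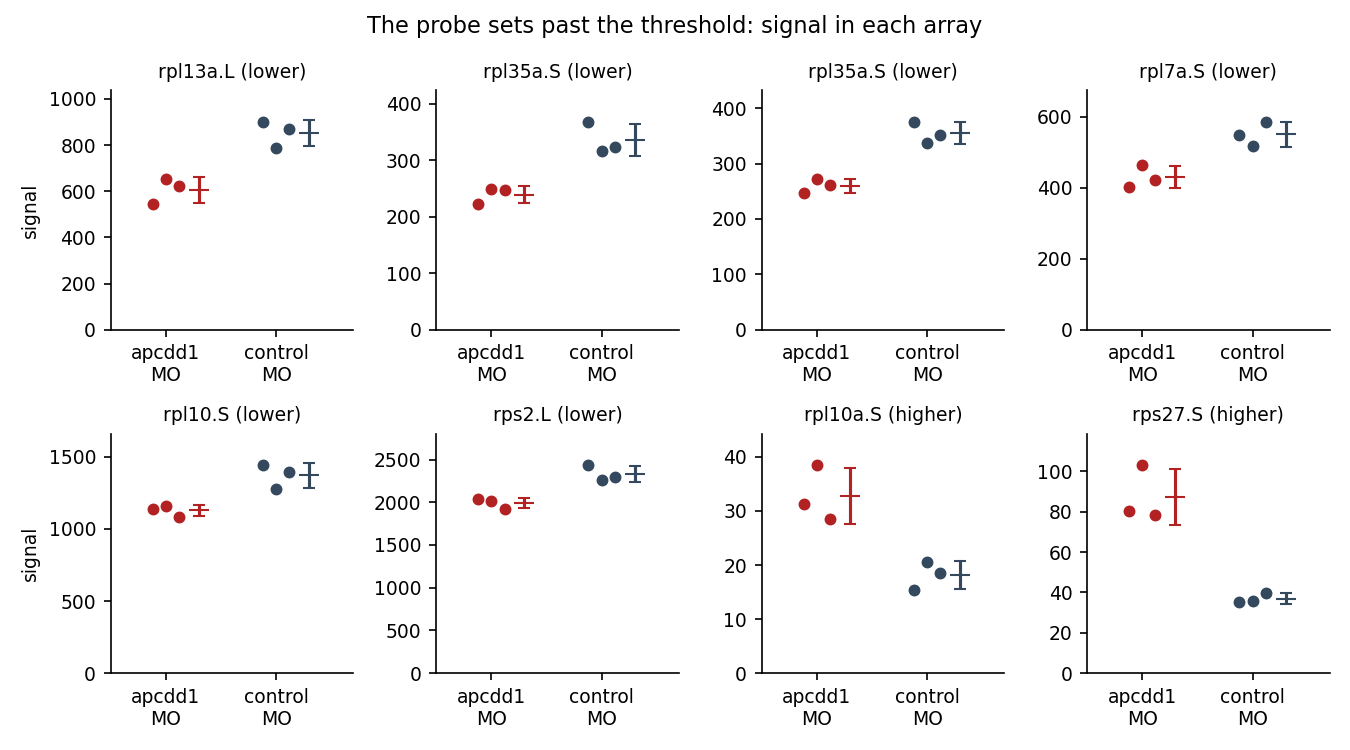
Signal in each array of the 8 ribosomal protein probe sets called by limma, 1 panel each, with apcdd1 MO left of control MO; points are arrays and the bar beside them is the mean with its SD (n = 3 each). In all 8 panels the groups do not overlap, 2 with apcdd1 MO higher and 6 with apcdd1 MO lower.

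Both probe sets that rose were dim, and each belonged to a gene whose bright probe set did not pass. The gene rps27.S encodes a zinc finger protein of the small subunit. Its dim probe set had signals of 80.4, 103 and 78.3 in apcdd1 MO arrays, against 35.1, 35.9 and 39.98 in control MO arrays. The groups are far apart, and the log2 change was 1.23 ± 0.12 (limma adjusted p = 3.5e-04), or 2.34-fold. The brightest rps27.S probe set had 4492, 4443 and 4249 in apcdd1 MO arrays, against 4332, 3904 and 4269 in control MO arrays, which overlap, with a change of 0.08 ± 0.05 (limma adjusted p = 0.48). A further bright one had 2912, 3046 and 2916 in apcdd1 MO arrays, against 2969, 2629 and 2924 in control MO arrays, and changed by 0.06 ± 0.06. The difference between the changes of the brightest and the dimmest probe set was -1.15 ± 0.11 (limma over all such pairs, adjusted p = 3.2e-04).

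The gene rpl10a.S, for a protein of the large subunit, showed the same split. Its dim probe set had 31.2, 38.5 and 28.6 in apcdd1 MO arrays, against 15.4, 20.6 and 18.5 in control MO arrays, a change of 0.85 ± 0.15 (limma adjusted p = 0.0081) or 1.80-fold. The control MO values all lie under 22.3, the mean signal below which probe sets were left out, so it was tested only through its apcdd1 MO arrays. Its bright probe set had 1149, 1271 and 1276 in apcdd1 MO arrays, against 1535, 1205 and 1359 in control MO arrays, and changed by -0.14 ± 0.09 (limma adjusted p = 0.43). The bright minus dim difference was -0.996 ± 0.19 (limma adjusted p = 0.029), called in 12 of 15 alternatives. It was lost without apcdd1 MO array 1 (adjusted p = 0.121), without apcdd1 MO array 2 (adjusted p = 0.121) and with 64 added to each signal (adjusted p = 0.086). With that addition the changes of the dim probe sets were 0.58 for rps27.S and 0.24 for rpl10a.S, both still called alone. What RNA the dim probe sets bind was not analysed here.

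Changes were also set side by side for probe sets of the same gene. For 24 symbols with at least 2 tested probe sets, 64 probe sets in all, the changes lay within 0.2 of each other for 17 and had a single sign for 12. The same shares over other genes are not given here, so this closeness is not read as particular to the members. The change of the brightest minus that of the dimmest probe set was called for 2 of these 24, rps27.S and rpl10a.S, and for 3.82% of the 1753 such pairs over all genes. Since the dim rpl10a.S probe set entered the test only through the group where it is high, nothing is read from this count. The gene rpl3.L, whose protein reaches the peptidyl transferase centre, had 5 tested probe sets with changes between -0.06 and -0.01. The gene rpl36a.L had 5 with changes between -0.08 and 0.17. None of these 10 passed in limma.

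**Figure D3:**
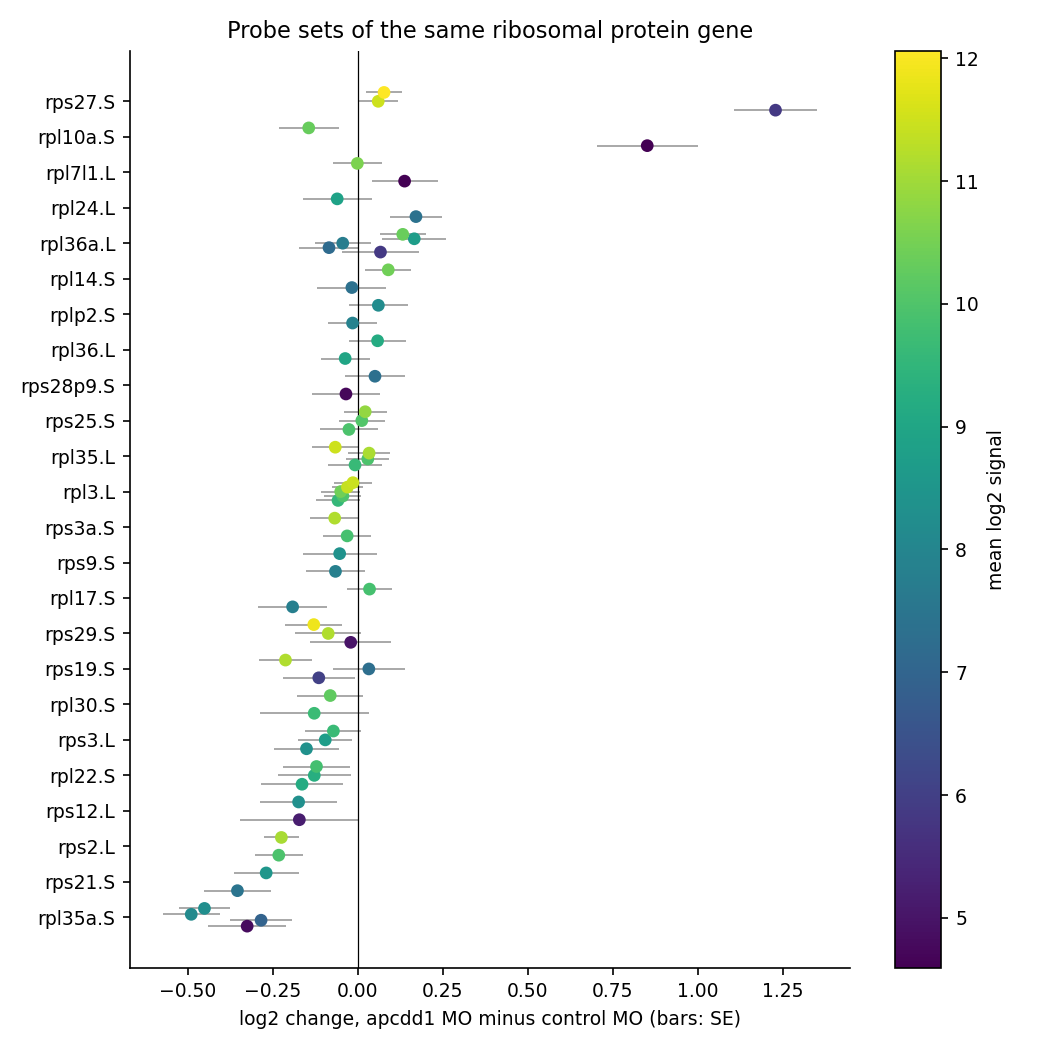
Log2 change (apcdd1 MO minus control MO) of each tested probe set of the 24 ribosomal protein symbols with 2 or more, 1 line a symbol. The dim probe sets of rps27.S and rpl10a.S, at 1.23 and 0.85, stand away from the bright probe sets of their genes, while 17 symbols have changes within 0.2. The dim rpl10a.S probe set was tested only through its apcdd1 MO arrays.

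The SD of the changes was smaller among the brightest members than among those of middle signal. Most members were bright, with a median signal of 727 against 160 for all tested probe sets, and 53 of the 125 (42.4%) belonged to the brightest 10% of the table. The 42 dimmest members, with signals of 24.1 to 400, had an SD of log2 changes of 0.290, a median of -0.05, 2 higher and 2 lower. That is 9.52% called, against 6.61% of all tested probe sets in that signal range. The 41 in the middle, from 420 to 1007, had an SD of 0.149 and a median of -0.07, with 2 lower and none higher (4.88% against 6.76%). The 42 brightest, from 1008 to 4849, had an SD of 0.099 and a median of -0.03, also with 2 lower and none higher (4.76% against 7.02%). All tested probe sets in the same signal ranges had an SD of 0.264, 0.1995 and 0.156, from dim to bright. The SD of the members was thus lower in the middle and bright ranges. The share of changes smaller than 0.2 in size did not show a clearly smaller spread. In the middle range it was 80.5% of members against 83.7% of all tested probe sets. In the bright range it was 88.1% of members against 87.9%. In the dim range the SD and the calls of the members include the dim rpl10a.S probe set. Since it was tested only through its apcdd1 MO arrays, where it is high, nothing is read from the dim range. Of the 11 members with a signal under 64, 2 rose and none fell, and 1 of these 2, of rpl10a.S, passed the filter only through its apcdd1 MO arrays. All tested probe sets under 64 were called in 5.14%. Of the 114 other members none rose and 6 fell (5.26%), against 7.11% called among all tested probe sets at 64 or more. When each of the 85 symbols was represented by its brightest probe set, none rose and 5 fell, with a median of -0.06. That is 5.88% called, against 6.62% of all tested probe sets. The dimmest tested members beside rpl10a.S and rpl35a.S were a probe set of rpl7l1.L, a paralogue of rpl7, at 0.14 and one of rps28p9.S at -0.03, and neither passed.

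**Figure D4:**
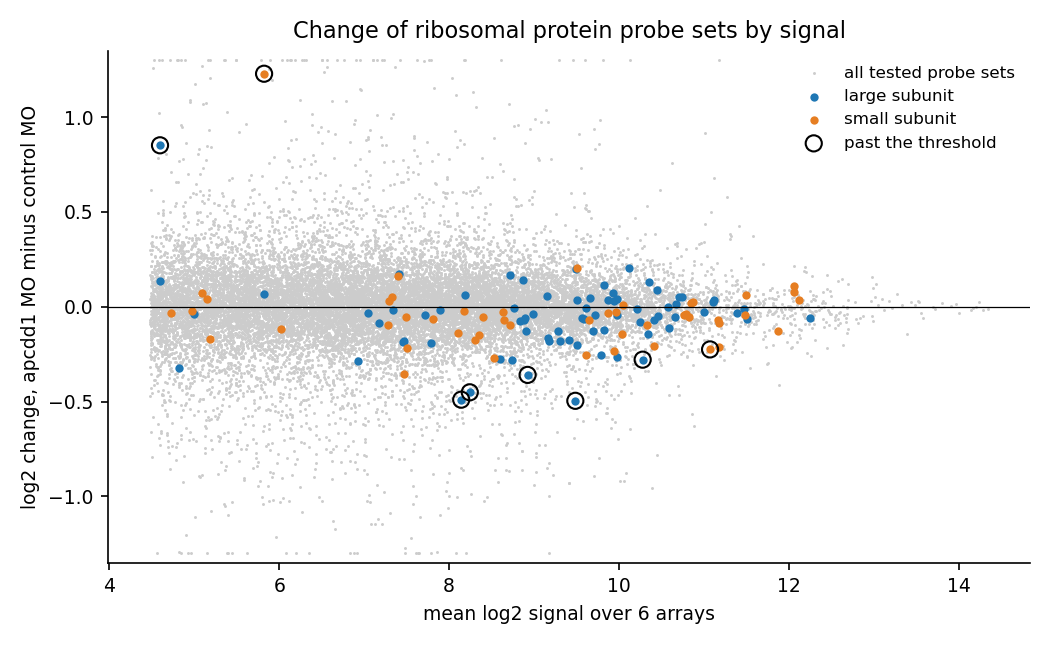
Log2 change (apcdd1 MO minus control MO) of each tested ribosomal protein probe set against its mean log2 signal over the 6 arrays, over all tested probe sets in grey, with called members marked; points beyond 1.3 are drawn at the edge. The SD of the changes was 0.149 among the 41 members of middle signal and 0.099 among the 42 brightest. Both called higher lie at the dim end. Of these, the rpl10a.S probe set passed the filter only through its apcdd1 MO arrays, so nothing is read from the dim end.

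The subunits were alike in their medians. Of the 76 large subunit probe sets, 1 rose and 5 fell (7.89% called), 52 had a negative change and the median was -0.05. The probe set that rose was the dim one of rpl10a.S, tested only through its apcdd1 MO arrays. Of the 49 small subunit probe sets, 1 rose and 1 fell (4.08% called), 35 had a negative change and the median was -0.05. The difference between the subunits' counts was not tested.

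None of the 4 brightest members passed, the brightest rps27.S probe set among them. The brightest member, rpl27.S of the large subunit, had 4675, 4833 and 4735 in apcdd1 MO arrays, against 5359, 4690 and 4836 in control MO arrays, a change of -0.06 (limma adjusted p = 0.61). The small subunit gene rps18.L had 4394, 4732 and 4370 in apcdd1 MO arrays, against 4565, 4234 and 4386 in control MO arrays, a change of 0.03 (limma adjusted p = 0.79). In both the groups overlap. The small subunit gene rps12.S had 4357, 4580 and 4340 in apcdd1 MO arrays, against 4194, 3906 and 4211 in control MO arrays. All its apcdd1 MO arrays were higher, but the change of 0.11 ± 0.05 did not pass (limma adjusted p = 0.25).

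Single-symbol probe sets of the following genes did not pass. The proteins of rpl5 and rpl11, which in mammals bind MDM2 when ribosome assembly fails and so raise p53, were represented by rpl5.L at -0.06 (limma adjusted p = 0.76), rpl5.S at 0.11 (adjusted p = 0.56) and rpl11.S at -0.11 ± 0.08 (adjusted p = 0.50). The acidic stalk of the large subunit, which recruits the translation factors, was represented by the bright probe set of rplp0.S at 0.07, rplp1.L at 0.05, rplp2.L at -0.05, and rplp2.S at -0.02 and 0.06. For rps6, whose protein is the small subunit target of the S6 kinases, the only tested probe set with 1 symbol was dim and changed by 0.04 (rps6.L). At a mean signal of 35.6 it does not settle how rps6 changed, and probe sets with several symbols are described further on. The gene rpl22l1.L, a paralogue of rpl22, changed by -0.18 (limma adjusted p = 0.40).

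All apcdd1 MO arrays lay below all control MO arrays for 12.8% of members, the same share as among all tested probe sets. All lay above for 4.00% of members, against 11.9% of all tested probe sets. Some of these members did not pass the test, and the following ones were named after their values were seen. The small subunit gene rps21.S changed by -0.35 (limma adjusted p = 0.071) at 1 probe set, with signals of 155, 174 and 142 in apcdd1 MO arrays, against 205, 181 and 214 in control MO arrays. Its other probe set changed by -0.27, and there the groups overlap. The large subunit genes rpl21.L (-0.27), rpl31.S (-0.27), rpl19.L (-0.25) and rpl4.L (-0.13) and the small subunit gene rps26.L (-0.21) also had all apcdd1 MO arrays below all control MO arrays. A probe set of rpl24.L, of the large subunit, had all apcdd1 MO arrays above, with a change of 0.17. The brighter rpl24.L probe set changed by -0.06, and there the groups overlap.

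L and S copies could be compared for 14 ribosomal protein genes, by testing the change of the L copy minus that of the S copy. The difference was called for 3 of them (21.4%), against 12.6% of the 1385 gene pairs in the table. A pair was formed from the brightest tested probe set of each copy. The gene rpsa encodes a small subunit protein also known as the laminin receptor. The rpsa.L signals were 195, 180 and 164 in apcdd1 MO arrays, against 156, 154 and 171 in control MO arrays, and the rpsa.S signals were 755, 709 and 692 in apcdd1 MO arrays, against 944, 790 and 840 in control MO arrays. The copies moved apart, with rpsa.L at 0.16 ± 0.09 and rpsa.S at -0.25 ± 0.08, neither called alone. The signal ratio of L to S was 0.258, 0.253 and 0.237 in apcdd1 MO arrays, against 0.165, 0.195 and 0.203 in control MO arrays. The difference of the changes was 0.41 ± 0.09 (95% interval 0.22 to 0.61; limma adjusted p = 0.011), called in all 16 alternatives.

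For rpl7a the L copy changed by -0.07 and the S copy by -0.36. Their signal ratio was 1.82, 1.72 and 1.74 in apcdd1 MO arrays, against 1.44, 1.41 and 1.46 in control MO arrays, without overlap. The difference was 0.29 ± 0.06 (95% interval 0.16 to 0.43; limma adjusted p = 0.011), called in 15 of 16 alternatives and lost without control MO array 2 (adjusted p = 0.061). For rpl39, a short large subunit protein at the exit tunnel, the L copy changed by 0.20 and the S copy by -0.07. Their ratio was 3.01, 2.44 and 2.62 in apcdd1 MO arrays, against 2.25, 2.15 and 2.24 in control MO arrays. This difference was 0.28 ± 0.08 (limma adjusted p = 0.045), and it was called in 9 of 16 alternatives. It held without apcdd1 MO array 2 and was lost without each other array, with adjusted p of 0.123 and 0.0889 without apcdd1 MO arrays 1 and 3, and 0.0603, 0.169 and 0.062 without control MO arrays 1 to 3.

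The other 11 pairs were not called. With the mean of all tested probe sets of each copy rpl17 was called as well (0.28, limma adjusted p = 0.039), against 0.16 (adjusted p = 0.195) with the brightest ones. The difference was 0.01 for rps20 (95% interval -0.13 to 0.14), 0.01 for rps3a (-0.13 to 0.16) and 0.05 for rpl4 (-0.16 to 0.26). It was -0.28 for rps12 (limma adjusted p = 0.061) and -0.17 for rpl5 (limma adjusted p = 0.073). In 10 of the 14 pairs at least 1 probe set had a suffix by which Affymetrix marks probes shared between transcripts or open to cross-hybridisation, so part of its signal may come from the other copy. Signal ratios between probe sets are not ratios of RNA amounts, and only their change between groups was tested.

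**Figure D5:**
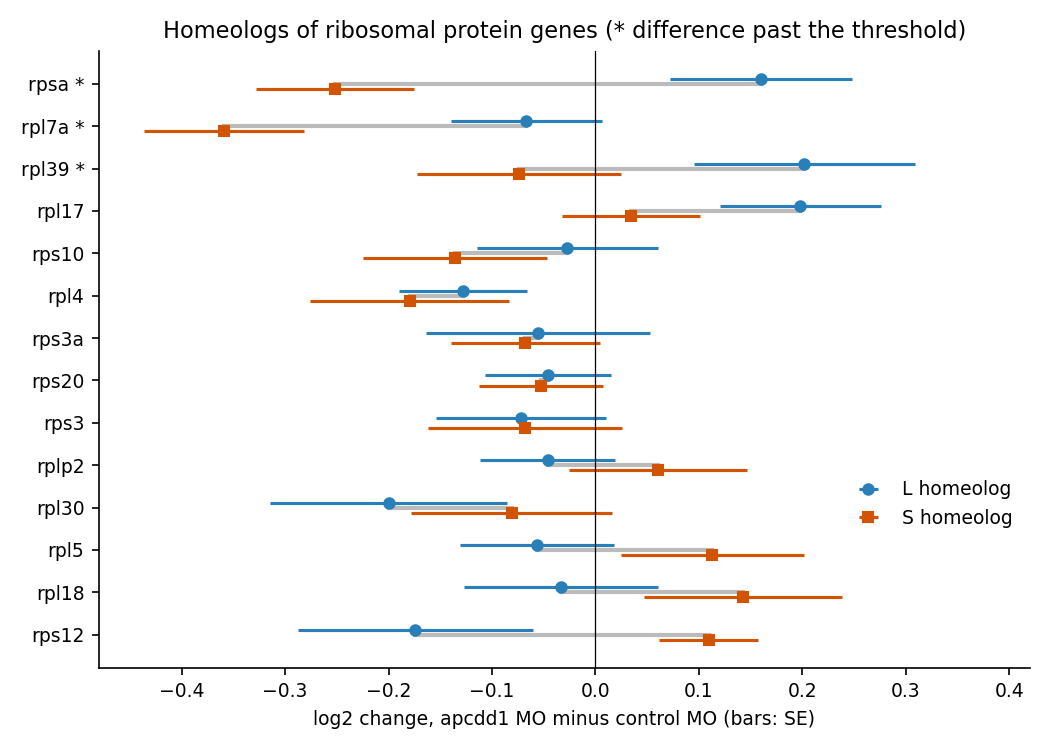
Log2 change (apcdd1 MO minus control MO) of the L and the S copy of 14 ribosomal protein genes, with standard errors; an asterisk marks the 3 genes whose difference was called by limma. In rpsa the copies lie at 0.16 and -0.25, in rpl7a at -0.07 and -0.36 and in rpl39 at 0.20 and -0.07.

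Calls were also looked up for the probe sets kept out of these counts. The 24 members left out as dim had mean signals of 4.73 to 21.9, and without the filter none was called by limma, 2 had an unadjusted p under 0.05, and their changes lay between -0.39 and 0.32. Of the 18 probe sets with several symbols, 1 rose and 1 fell, with a median of -0.07. That is 11.1% called, against 6.62% of all tested probe sets. The one that rose had 1048, 1039 and 965 in apcdd1 MO arrays, against 898, 807 and 860 in control MO arrays (0.25, limma adjusted p = 0.049). It passed in 6 of 16 alternatives, and in leave-one-out fits it held only without control MO array 1 (adjusted p = 0.0398), with adjusted p of 0.136, 0.15 and 0.079 without apcdd1 MO arrays 1 to 3, and 0.208 and 0.0679 without control MO arrays 2 and 3. The one that fell had 1168, 1144 and 1215 in apcdd1 MO arrays, against 1370, 1370 and 1369 in control MO arrays (-0.22, limma adjusted p = 0.035). It passed in 6 of 16 alternatives and was lost without any single array, with adjusted p of 0.085, 0.118 and 0.0752 without apcdd1 MO arrays 1 to 3, and 0.0624, 0.133 and 0.0611 without control MO arrays 1 to 3.

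Around the ribosomal proteins stand genes that build ribosomes or respond to them, of which 8 lists were tested with the brightest probe set of each gene. The lists also hold genes of mTOR signalling and of the p53 response. Of 166 genes, 6 rose and 7 fell (7.83% called), against 6.62% called among all tested probe sets. Of those that rose, 2 were copies of ccng1 in the p53 list. Among 42 genes of large subunit assembly, 2 rose and 5 fell (16.7% called), with a median change of -0.03. The assembly factor nop16.S had 377, 359 and 336 in apcdd1 MO arrays, against 573, 593 and 654 in control MO arrays (-0.76, limma adjusted p = 3.5e-04). The other 4 that fell were mak16.L (-0.71), mrto4.L (-0.62), whose yeast counterpart holds the place of the stalk protein, rsl24d1.L (-0.48), a relative of rpl24, and nmd3.L (-0.32), the adaptor for export of the large subunit. The 2 that rose were nvl.L (0.45) and rsl24d1.S (0.28). The L and S copies of rsl24d1 were thus called in opposite directions: rsl24d1.L had 258, 271 and 228 in apcdd1 MO arrays, against 327, 339 and 391.9 in control MO arrays, while rsl24d1.S had 829, 803 and 823 in apcdd1 MO arrays, against 702, 656 and 667 in control MO arrays. Without apcdd1 MO array 3 or without control MO array 2 the calls of rsl24d1.L (adjusted p = 0.067 and 0.0505), nmd3.L (0.078 and 0.086), rsl24d1.S (0.087 and 0.107) and nvl.L (0.056 and 0.105) were lost. Without apcdd1 MO array 1 or 2 those of rsl24d1.S (0.058 and 0.053) and nvl.L (0.084 and 0.096) were lost, and that of nvl.L also without control MO array 1 (0.06). After centring on the ribosomal protein median, which is not a check of a call, those of nmd3.L (limma adjusted p = 0.227) and rsl24d1.S (0.057) were lost.

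Among 52 genes of small subunit assembly, 1 rose and 2 fell (5.77% called), with a median of 0.00. The processome gene utp18.L had 39.1, 34.7 and 45.1 in apcdd1 MO arrays, against 83.2, 86.8 and 68.2 in control MO arrays (-1.004, limma adjusted p = 0.0016). The gene tsr1.L also fell (-0.31, limma adjusted p = 0.039), a call lost with the replicate block (adjusted p = 0.081), without the filter (0.053), with eBayes without trend and robust (0.059) and after centring on the ribosomal protein median (0.265). Among single arrays it held without control MO array 1 and was lost without each other one, with adjusted p of 0.0723, 0.114 and 0.147 without apcdd1 MO arrays 1 to 3, and 0.147 and 0.0815 without control MO arrays 2 and 3. The kinase gene riok3.S had 130, 113 and 93.8 in apcdd1 MO arrays, against 68.4, 64.6 and 63.4 in control MO arrays (0.77, limma adjusted p = 0.0046), and all 3 of its tested probe sets were called. For its copy riok3.L 1 of 2 tested probe sets was called, but not the brightest (0.41, limma adjusted p = 0.086). Of 13 genes of RNA polymerase I and rDNA transcription only polr1c.L rose (0.41) and none fell at their brightest probe sets. For tcof1.S 1 of 2 tested probe sets was called, but not the brightest (-0.10). None was called by limma among 15 genes of small nucleolar ribonucleoproteins, 21 of the translation of pyrimidine tract mRNAs and mTOR, or 15 of import and chaperoning of ribosomal proteins. The list for the p53 response to failed assembly had 6 tested genes, and 5 of its 10 entries had no match. Of these genes 2 rose, ccng1.L by 3.48 and ccng1.S by 0.84, both copies of the same p53 target gene. Of the 3 tested probe sets of ccng1.S, 2 were called. The others, mdm4.S (-0.03), mycn.S (-0.09), myc.L (0.06) and myc.S (0.00), did not pass. Of 2 further genes placed beside the ribosome, fau.L, whose product includes a small subunit protein, changed by -0.05 and nedd8.L, for a ubiquitin-like protein, by -0.02, and neither passed.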

How the data were processed

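Total RNA of 3 apcdd1 MO and 3 control MO samples was hybridised to 1-colour Affymetrix arrays. The authors deposited intensity values per probe set on a linear scale, and the submitters' processing notes name MAS5, which background-corrects, summarises and scales each array alone. Its version and the scaling target are not given in the sources used here. The precision rests on the number of arrays.

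Signals were floored at 1, which moved 0 values, and log2 transformed. After 160 control probe sets were set apart, 12990 probe sets below the 40th percentile of mean log2 signal (4.48) were left out and 19484 tested with limma 3.58.1 in R 4.3.3 (lmFit, eBayes with trend and robust, Benjamini-Hochberg over all tested, threshold 0.05). Differences between homeologs and between the brightest and dimmest probe sets were fitted the same way over all genes with such pairs. The fits were checked on simulated data with noise drawn independently for each probe set and array. Such data lack the shifts that members share within an array, so the check does not cover these. Of 90 member symbols 88 had a gene number in the RefSeq table, all with an unchanged symbol. Named members were those past the threshold, the 4 brightest and 4 dimmest, genes with disagreeing probe sets, homeolog pairs with the lowest p, a list of genes with further roles and the called genes of the other lists. Those of rpl3, rpl36a, rps21, rpl21, rpl31, rpl19, rpl4, rpl24 and rps26, the pairs rps20 and rps3a, and more than 4 genes of a list were named after their values were seen. The members and lists were chosen with earlier results of these data known. Alternatives were normalization, added constants, filters, a replicate block, array weights, probe set choice and leaving out each array.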

Additional observations from a re-analysis of the deposited data

How the results depend on the processing

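Over 34 named member probe sets and 16 alternatives, 538 combinations gave a value, of which 510 kept their side of the threshold, 19 lost it, 9 gained it and none reversed. Array weights gave the most calls: 4449 over all probe sets, 14 ribosomal members higher and 13 lower, 18 large and 9 small subunit probe sets, 5 homeolog pairs and 42 genes of the 8 lists. A filter at the 60th percentile left 0 members higher, 1 small subunit call and 0 differing probe set pairs, since it removes the dim probe sets. With the brightest probe set of each symbol 0 members were higher. Without probe sets with suffixes for shared probes 1 member was lower. Centring on the ribosomal protein median left 3 lower and 1 small subunit call, and eBayes without trend and robust left 1 small subunit call; the cause was not tested.

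Leaving out 1 array at a time gave 669 to 1430 calls over all probe sets, 2 ribosomal members higher each time, 3 to 6 lower, 4 to 7 large and 1 to 2 small subunit calls, 1 to 3 homeolog pairs, 1 to 2 probe set pairs and 8 to 15 list genes. These fits kept the filter set on all 6 arrays. The 2 higher members include the dim rpl10a.S probe set, tested only through its apcdd1 MO arrays, so nothing is read from their constant number. The lowest total came without control MO array 2, which also left 1 homeolog pair and 8 list genes; without apcdd1 MO array 3 the total was 739, with 3 members lower and 8 list genes. Without apcdd1 MO array 1, 3 members were lower.

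Same-numbered samples did not deviate together (correlations 0.053, 0.021 and -0.268). With 3 arrays a group this check cannot settle whether the numbers pair the samples, and the main fit used no pairing. With the replicate block 1101 probe sets were called, 2 members were higher, 4 were lower, and 1 small subunit probe set was called. Dim signals and 3 arrays a group limit what small changes could be seen.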
